A study of Mus musculus with 2 samples.

Results

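The alpha-defensin genes *Defa5*, *Defa22*, *Defa23*, *Gm14851*, *Gm21002*, *Gm15293*, *Gm15284* and *Gm15292* were followed in single-cell RNASeq of the mouse ileal epithelium. They are the 8 listed symbols among the 27998 gene rows of the count tables, all 8 were found, and each was read inside and outside the cells that devoted 0.5% or more of their transcripts to *Lyz1*, which encodes Paneth cell lysozyme. The tables carry the older names of several members: in RefSeq, *Gm14851* is *Defa38*, *Gm15284* is *Defa30*, *Gm15293* is *Defa41*, *Gm15292* is *Defa40* and *Gm21002* is *Defa33*. Another 20 rows of the tables are alpha-defensins, so the family has 28 rows.

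The study asked how loss of TIPE0, the product of *Tnfaip8*, alters the intestinal epithelium, and profiled epithelial cells of 1 WT and 1 *Tipe0*-/- library. Both come from C57BL/6 mice aged 8 weeks, the first wild type and the second labelled TNFAIP8-/-, and the labels name no other allele and no treatment in vivo for either group. Per the figure legends of the study each library combines cells of 3 mice, so the animals cannot be told apart and the genotype difference has no replicate. The WT library holds 3402 cells and 38127808 unique transcript counts (unique molecular identifiers, UMIs), and the *Tipe0*-/- library 2006 cells and 23897126 UMIs, with medians of 7760 and 7307.5 UMIs per cell. The labels call the source ileal enterocytes but describe the isolated material as enteroids, while the text of the study describes epithelium of undamaged mice, and this was not resolved. The libraries share 9 cell barcodes. *Tnfaip8* itself had 372 UMIs in WT, or 9.76 CPM (UMIs per 1000000 UMIs of the cells summed), and 57 in *Tipe0*-/-, or 2.39 CPM, so its transcript was lower but not absent in the library labelled as its knockout. Where the deletion lies relative to the counted 3′ ends is not given in the sources used here.

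Alpha-defensins are small cationic antimicrobial peptides, called cryptdins in the mouse, that Paneth cells at the base of the small intestinal crypts store in granules and release into the crypt lumen. They are made as precursors with a signal peptide and a propiece, and in the mouse the protease matrilysin, the product of *Mmp7*, cuts the active peptide free. Their genes arose by repeated duplication and sit in a cluster, and Wnt signaling through TCF factors is known to drive their expression as Paneth cells mature.

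All 28 rows lie on chromosome 8 of the mm10 (GRCm38) assembly, and each gene has 2 exons. The most abundant member, *Gm15284*, spans chr8:21134642-21135598 on the plus strand. *Defa22* spans chr8:21162277-21163249 and *Gm21002* chr8:21391811-21392791, both on the plus strand, and *Gm14851* spans chr8:21095074-21096050 on the minus strand. The remaining members lie on the plus strand: *Defa23* at chr8:21055047-21056016, *Gm15293* at chr8:21201561-21202539, *Gm15292* at chr8:21249754-21250556 and *Defa5* at chr8:21297439-21298375. The library chemistry counts the 3′ ends of spliced transcripts, which are 351 to 426 bases long for the members, so levels were not divided by length.

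The coding sequences of 3 members are shown, the 2 most abundant in both libraries and *Gm21002*, the member with the highest inside ratio, to let the reader see how close the copies are. They come from the GENCODE transcripts on GRCm38, run 5′ to 3′, and capitals mark bases that differ from *Gm15284* or have no partner in it.
Gm15284: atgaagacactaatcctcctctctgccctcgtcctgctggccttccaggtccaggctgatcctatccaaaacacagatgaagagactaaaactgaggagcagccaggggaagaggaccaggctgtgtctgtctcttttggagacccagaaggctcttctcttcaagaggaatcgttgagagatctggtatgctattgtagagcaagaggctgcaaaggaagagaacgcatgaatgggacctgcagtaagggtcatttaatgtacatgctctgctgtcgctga
Gm21002: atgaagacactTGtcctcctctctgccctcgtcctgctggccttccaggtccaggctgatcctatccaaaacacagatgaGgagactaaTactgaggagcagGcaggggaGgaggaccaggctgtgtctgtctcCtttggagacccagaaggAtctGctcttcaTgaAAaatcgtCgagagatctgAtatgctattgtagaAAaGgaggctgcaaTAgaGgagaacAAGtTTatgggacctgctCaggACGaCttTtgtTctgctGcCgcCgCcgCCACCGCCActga
Defa22: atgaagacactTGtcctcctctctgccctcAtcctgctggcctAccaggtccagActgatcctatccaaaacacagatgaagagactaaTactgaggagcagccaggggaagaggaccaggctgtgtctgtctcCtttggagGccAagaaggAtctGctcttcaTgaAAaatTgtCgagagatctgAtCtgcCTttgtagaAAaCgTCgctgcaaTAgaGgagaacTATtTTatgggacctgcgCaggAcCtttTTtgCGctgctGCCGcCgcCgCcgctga
The 5′ part, which encodes the signal peptide and most of the propiece, is nearly shared, and the 3′ end, which encodes the mature peptide, is not. In *Gm21002* 7 of the first 150 bases are capitals and 38 of the 138 later ones, and in *Defa22* 9 of 150 and 38 of 132. Coding identity to *Gm15284* was 83.2% for *Gm21002* and 82.2% for *Defa22*, and it reached 97.2% for *Defa23* and 90.1% for *Gm15292*. *Defa5* and *Gm15293* were 98.9% identical. *Gm14851* stood apart from the other members at 61.6% to 65.1% identity, with a coding sequence of 351 bases against 282 or 288.

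This similarity limits which rows can be read singly, because Cell Ranger counts only reads that map to 1 gene. Every stretch of 98 bases in the *Gm21002* transcript also occurs in another alpha-defensin transcript, chiefly *Defa2*, which had 0 UMIs in both libraries inside *Lyz1*-rich cells, *Gm15308* and *Defa20*. For *Defa23* the share was 89.2%, mostly with *Defa-rs7*, and for *Defa5* it was 88.9%, mostly with *Gm15315*. For *Defa22* it was 41.3%, shared with *Defa21*. Only 1.0% of such stretches of *Gm15284* and 1.7% of those of *Gm15292* were shared, with 13.7% for *Gm15293* and 18.5% for *Gm14851*. Although every such stretch of *Gm21002* is shared, its row held 67597 UMIs in WT and 65768 in *Tipe0*-/- *Lyz1*-rich cells. The stretches come from GENCODE transcripts, and how Cell Ranger assigned reads to this row is not known. The counts of *Gm21002*, *Defa23* and *Defa5* are therefore uncertain as counts of single genes, and values for the rows that share sequence are also given summed.

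The Lyz1 rule took 243 of 3402 WT cells, or 7.14% (exact 95% Clopper-Pearson interval 6.30% to 8.06%), and 132 of 2006 *Tipe0*-/- cells, or 6.58% (5.53% to 7.76%). All intervals given here cover counting error only. These cells were rich in RNA, with a median of 21728 UMIs per cell in WT and 25878 in *Tipe0*-/-, against 7266 and 6888.5 in the cells outside. They carried other Paneth cell transcripts as well. *Mptx2*, a pentraxin of Paneth cells, was in the cells outside at 2.25% of its inside level in WT and 1.77% in *Tipe0*-/-, and *Clps*, which encodes colipase, at 2.80% and 1.36%. *Mmp7* was less restricted, at 9.64% and 11.4%. *Reg3b* and *Reg3g*, lectin genes of the Paneth list, were higher outside than inside in both libraries, at 2111% and 1569% for *Reg3b* and 379% and 398% for *Reg3g*. The boundary was not empty: 41 WT and 15 *Tipe0*-/- cells lay between 0.25% and 0.5% *Lyz1*, and 77 and 23 between 0.5% and 1%.

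Alpha-defensin transcripts filled much of these cells. Summed over the 8 members they made up 20.7% of the UMIs of *Lyz1*-rich cells in WT and 15.5% in *Tipe0*-/-, and all 28 rows together made up 65.2% and 53.8%. In the cells outside the 8 members took 0.367% and 0.146%. The inside level exceeded the outside level by a log2 ratio of 5.82 (95% interval 5.81 to 5.83) in WT and 6.73 (6.71 to 6.74) in *Tipe0*-/-. Each of the 8 members was higher inside than outside by a log2 ratio over 1 in both libraries, which 0.927% of 11002 genes were in WT and 0.906% of 10485 in *Tipe0*-/-. Alpha-defensins take up most UMIs inside, which lowers the inside share of other genes and so these percentages. With alpha-defensins and *Lyz1* out of the denominator, the ratios of the summed members were 7.38 in WT and 7.89 in *Tipe0*-/-. *Lyz1*-rich cells held 91.2% of all member UMIs in WT and 94.8% in *Tipe0*-/-.

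From the highest to the lowest member the level fell 105-fold in WT and 56.9-fold in *Tipe0*-/- *Lyz1*-rich cells. *Gm15284* stood at 101500 CPM in WT and 60514 CPM in *Tipe0*-/- *Lyz1*-rich cells, and *Defa22* at 69967 and 52569 CPM. These 2 were the highest members in both libraries, and the top 4 members held 96.3% and 95.3% of member UMIs. *Gm14851* stood at 16552 and 15495 CPM and *Gm21002* at 11364 and 18891 CPM, so their order was turned around between the libraries. *Defa5* followed at 2584 and 2549 CPM and *Gm15293* at 2294 and 2502 CPM, and in *Tipe0*-/- the counting intervals of these 2 overlapped. The lowest members were *Gm15292*, at 1866 and 1235 CPM, and *Defa23*, at 964 and 1063 CPM. For scale, the 3 other alpha-defensin rows with the most UMIs stood at 179225 and 124221 CPM for *Defa24*, 106800 and 107288 CPM for *Defa20*, and 60260 and 67316 CPM for *Gm15308*.

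**Figure D1:**
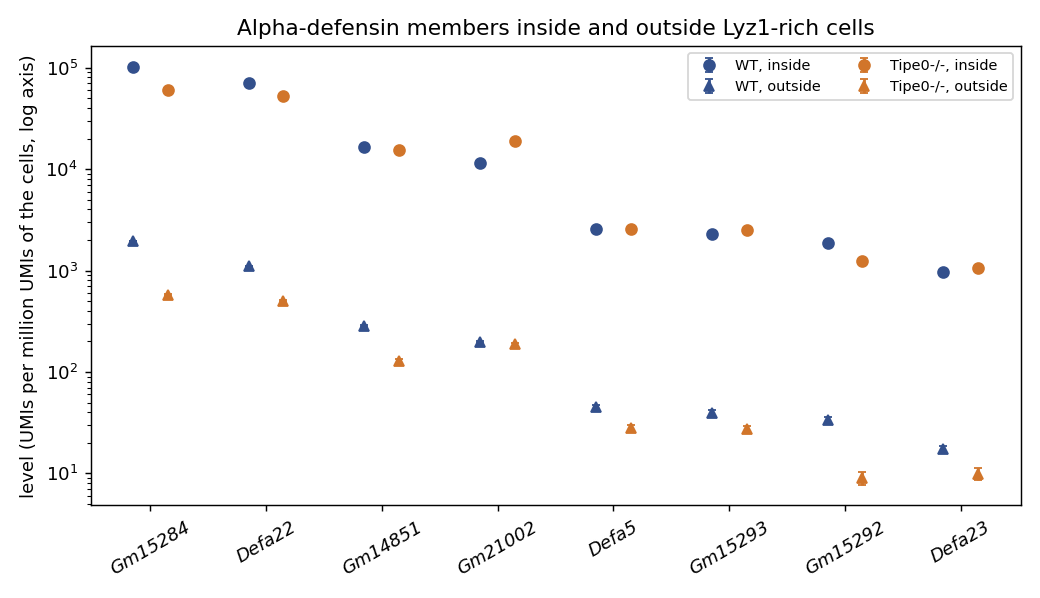
Level of each member in CPM (log axis), inside (circles) and outside (triangles) *Lyz1*-rich cells, with WT in blue and *Tipe0*-/- in orange. Bars are exact 95% Poisson intervals for counting error and are mostly smaller than the symbols. Every inside level lies far above its outside level, and *Gm21002* is the member whose inside level is more than 0.5 on the log2 scale higher in *Tipe0*-/-, at 18891 against 11364 CPM.

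The members did not move as a block between the libraries. Inside *Lyz1*-rich cells the *Tipe0*-/- library was lower for *Gm15284*, by a log2 ratio of -0.75 (95% interval -0.75 to -0.74), for *Gm15292*, at -0.59 (-0.65 to -0.54), and for *Defa22*, at -0.41 (-0.42 to -0.40). It was higher for *Gm21002*, at 0.73 (0.72 to 0.75). The other members were near 0, with *Gm14851* at -0.10 (-0.11 to -0.08), *Defa5* at -0.02 (-0.06 to 0.02), *Gm15293* at 0.13 (0.09 to 0.16) and *Defa23* at 0.14 (0.08 to 0.20). The 8 summed members gave -0.42 (-0.42 to -0.42), and the 28 rows -0.28. With 1 library per genotype none of these differences could be tested, and the intervals say nothing of the spread between mice.

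These ratios are shares of the UMIs of cells that are mostly defensin RNA, so a lower defensin share raises the share of all other transcripts. For 6463 genes the 2 libraries together held 50 or more UMIs inside, and their median log2 ratio was 0.59. Past a log2 ratio of 0.5, 59.9% of these genes were higher in *Tipe0*-/- and 1.41% lower. Of the 8 members 1, *Gm21002*, was higher by that much, and 2, *Gm15284* and *Gm15292*, were lower. The median of the members was -0.06, and 7 of 8 lay below the median of all genes. With alpha-defensins and *Lyz1* taken out of the denominator, *Gm21002* was at 0.33 and the 7 others were below 0, from -0.27 for *Defa23* to -1.15 for *Gm15284*. *Gm15293* and *Defa23* thus changed sign, at -0.28 and -0.27. Relative to the median of all genes *Gm21002* was at 0.14 and *Gm15284* at -1.34. Of the 16 other alpha-defensin rows with at least 50 UMIs inside, 0 were higher and 4 lower by 0.5, and their ratios ran from -0.80 to 0.20.

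**Figure D2:**
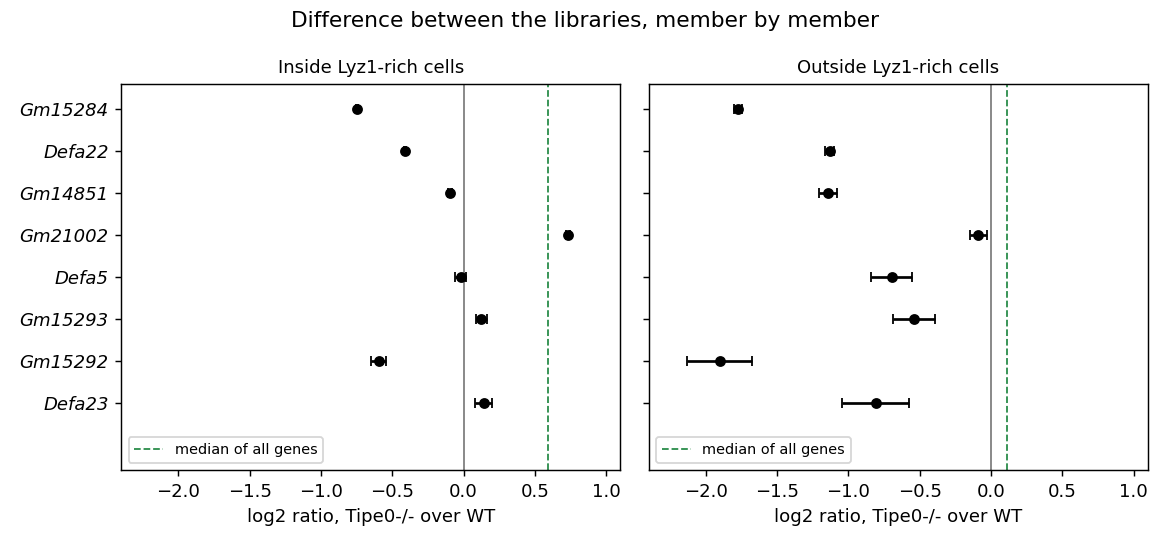
Log2 ratio of *Tipe0*-/- over WT for each member inside (left) and outside (right) *Lyz1*-rich cells, with 95% intervals for counting error. The grey line marks 0 and the green dashed line the median of all genes with at least 50 UMIs, at 0.59 inside and 0.11 outside. Inside, *Gm21002* alone lies to the right of the green line, and outside all 8 members lie to its left.

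The sign of the summed difference depended on which cells were called Paneth-rich. When cells were taken by *Mptx2*, *Ang4* and *Mmp7* at 0.5% or more of their UMIs, 391 WT and 96 *Tipe0*-/- cells passed. The members took 17.3% of their UMIs in WT and 17.7% in *Tipe0*-/-, which is 0.04 on the log2 scale. Of those cells 34.3% in WT and 6.25% in *Tipe0*-/- were also goblet-rich (*Tff3*, *Fcgbp* and *Zg16* at 0.5% or more). *Ang4*, an antimicrobial ribonuclease, was itself lower in *Tipe0*-/- *Lyz1*-rich cells, at 4604 against 9863 CPM. In the cells that passed both rules, 214 in WT and 85 in *Tipe0*-/-, the members took 21.4% and 18.3%. *Gm15284* and *Gm15292* stayed lower under the *Mptx2*, *Ang4* and *Mmp7* rule, at -0.30 and -0.10, and the 6 others were higher, up to 1.16 for *Gm21002*.

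Cells of equal *Lyz1* share gave the same order of the libraries. At 0.5% to 1% *Lyz1* the members took 19.1% of UMIs in WT and 9.99% in *Tipe0*-/-. At 1% to 2% they took 21.7% and 15.5%, and at 2% to 5% they took 21.0% and 17.5%. *Lyz1*, the gene that chose these cells, stood at 14850 CPM in WT and 20769 CPM in *Tipe0*-/-, a ratio of 0.48 on the log2 scale that lay below the median of all genes. Counted per cell without any scaling, the median *Lyz1*-rich cell held 3987 member UMIs in WT and 3542 in *Tipe0*-/-. That median was 1946 and 1313.5 UMIs for *Gm15284*, 1210 and 1132.5 for *Defa22*, and 235 and 491 for *Gm21002*.

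Over the whole libraries the 8 members took 3.54% of UMIs in WT and 2.38% in *Tipe0*-/-, which is -0.57 on the log2 scale. In such a sum fewer Paneth cells and less defensin RNA per Paneth cell cannot be told apart.

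The balance of *Gm21002* to *Gm15284* needs no denominator. The pair was chosen after its values were seen, as the members with the highest and the lowest inside ratio, so a difference between the libraries was fixed by the choice and what follows describes its size. *Gm21002* made up 5.49% of the UMIs of the 8 members in WT and 12.2% in *Tipe0*-/- *Lyz1*-rich cells, while *Gm15284* made up 49.0% and 39.1%. Over single cells with at least 20 UMIs of the pair, *Gm21002* had a median of 10.3% of the pair in 234 WT cells (lower to upper quartile 8.04% to 14.1%) and 24.9% in 123 *Tipe0*-/- cells (20.9% to 31.0%). Of the WT cells 19 lay above the *Tipe0*-/- median, and of the *Tipe0*-/- cells 5 lay below the WT median. The cells of a library share its mice and its preparation and are not replicates, so this is a description of 2 libraries.

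**Figure D3:**
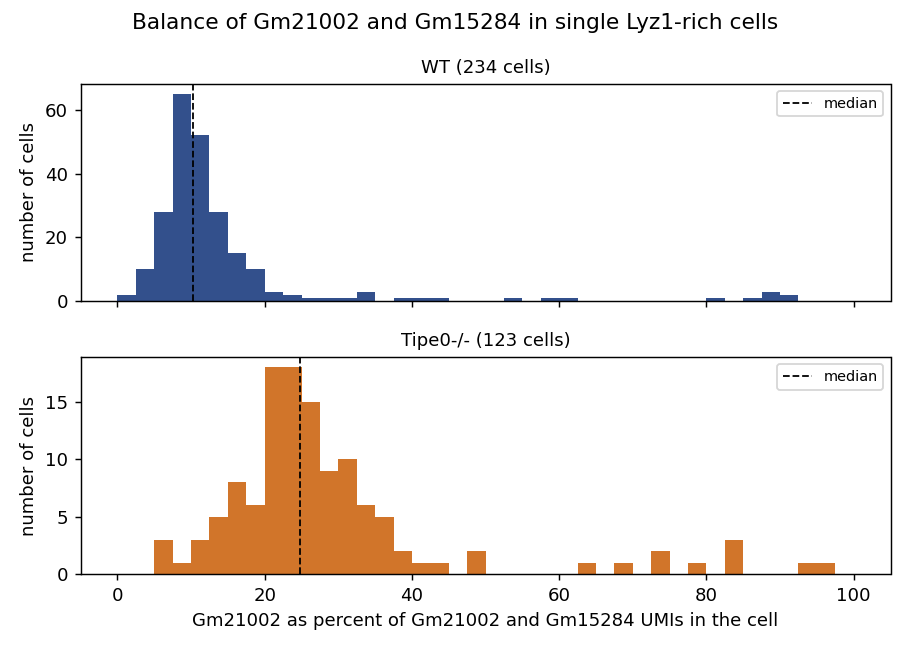
Number of *Lyz1*-rich cells by the percent that *Gm21002* makes up of the *Gm21002* and *Gm15284* UMIs of the cell, for WT (top, 234 cells) and *Tipe0*-/- (bottom, 123 cells), with the median dashed. The bulk of WT cells lies around 10.3% and that of *Tipe0*-/- cells around 24.9%, and each library has 10 cells above 50%.

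By *Lyz1* share the balance was 9.09%, 9.84% and 11.7% in WT cells at 0.5% to 1%, 1% to 2% and 2% or more *Lyz1*, and 22.5%, 22.6% and 24.9% in *Tipe0*-/- cells. Outside *Lyz1*-rich cells it was 9.23% (95% interval 9.02% to 9.45%) in WT and 24.6% (24.0% to 25.3%) in *Tipe0*-/-. In goblet-rich cells it was 10.7% and 29.1%. In *Tipe0*-/- 10 of the 420 goblet-rich cells held 56.9% of their *Gm21002* UMIs, and without the 10 of each library with the most UMIs of the pair, a choice made after seeing the data, the balance was 9.98% (8.73% to 11.3%) and 18.9% (16.1% to 21.9%). In enterocyte-rich cells (*Apoa1* and *Apoa4* at 0.5% or more) it was 11.2% (9.13% to 13.6%) and 17.2% (12.6% to 22.7%), with intervals that overlapped. Single cells were wider spread, with 5th to 95th percentiles of 5.12% to 39.0% in WT and 11.6% to 74.0% in *Tipe0*-/- *Lyz1*-rich cells. The 10 WT and 10 *Tipe0*-/- cells in which *Gm21002* exceeded *Gm15284* carried few members, with medians of 1.41% and 1.93% of UMIs against 19.7% and 15.7% over all cells of the comparison. Because all 98-base stretches of *Gm21002* recur in related rows, the pair was also read as a family: *Defa2*, *Gm21002*, *Defa20* and *Gm15308* summed stood at 178424 CPM in WT and 193495 CPM in *Tipe0*-/-, with a log2 ratio of 0.12 (0.11 to 0.12). Read singly, the *Gm21002* row was at 0.73, *Defa20* at 0.01 and *Gm15308* at 0.16. Of the 98-base stretches of *Defa20* and of *Gm15308* 99.7% are shared as well, so the contrast between these rows cannot be read gene by gene. *Defa22* and *Defa21* summed gave -0.34, *Defa5* and *Gm15315* 0.06, and *Defa23* and *Defa-rs7* 0.14.

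Within *Lyz1*-rich cells the members varied together. The 28 pairwise Spearman correlations of their UMI shares ranged from 0.37 to 0.86 over 243 WT cells and from 0.51 to 0.87 over 132 *Tipe0*-/- cells. The highest in both was that of *Defa5* with *Gm15293*, which are close in sequence, and the lowest that of *Gm14851* with *Gm21002*. The summed members correlated with the total UMIs of the cell, at 0.54 in WT and 0.37 in *Tipe0*-/-, and with *Lyz1* at 0.04 and 0.33. These are descriptions over cells that share a library, and larger shares of some members leave less for others. A few *Lyz1*-rich cells had hardly any member: 14 WT and 12 *Tipe0*-/- cells had less than 1% of their UMIs in the 8 members. Over all 28 alpha-defensin rows they still held 13.4% and 7.19% of their UMIs, against 66.3% and 55.5% in the other *Lyz1*-rich cells. They held fewer UMIs, with medians of 6954.5 and 6818.5, and more *Spink4*, a secreted inhibitor shared with goblet cells, at 46933 and 34658 CPM against 17912 and 11207 CPM in the other *Lyz1*-rich cells.

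**Figure D4:**
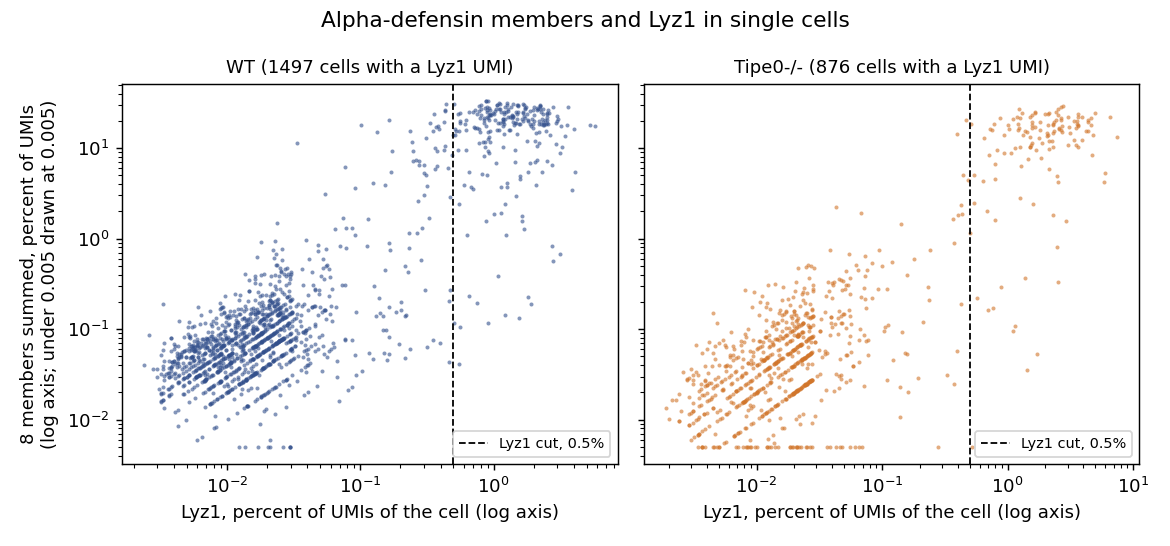
Summed members against *Lyz1*, both as percent of the UMIs of a cell (log axes), for the 1497 WT and 876 *Tipe0*-/- cells with a *Lyz1* UMI, with the 0.5% cut dashed. Cells right of the cut mostly hold 10% or more of their UMIs in members, some lie far lower, and a scatter of WT cells left of the cut reaches the same height. Of all cells under the cut, 58 in WT and 12 in *Tipe0*-/- held 1% or more of their UMIs in members.

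Of the 849 other genes with at least 200 UMIs inside in each library, 5 are named whose shares followed the summed members most closely. They were read over the 243 and 132 cells, and all 5 are on the Paneth list of granule and host defence genes. By the lower of the 2 library values, Spearman's rho was 0.45 for *Mptx2* (0.45 in WT, 0.54 in *Tipe0*-/-), 0.40 for *Ang4* (0.40 and 0.63), and 0.31 for *Clps* (0.31 and 0.38). *Pnliprp2*, which encodes a pancreatic lipase-related protein, followed at 0.29 and *Nupr1*, a stress-response gene, at 0.17. All 5 were lower in *Tipe0*-/- inside *Lyz1*-rich cells, with log2 ratios of -0.51 for *Mptx2*, -1.10 for *Ang4*, -0.65 for *Clps*, -0.87 for *Pnliprp2* and -0.58 for *Nupr1*. Of 6463 genes 1.41% were lower by 0.5 there. The 5 were picked for following the summed members, which were lower too, so their direction is not an independent result.

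The wider Paneth list was read in groups. Of 14 granule and host defence genes with at least 50 UMIs inside, 8 were lower and 1 higher by a log2 ratio of 0.5, with a median of -0.55. The higher gene was *Lyz2* at 1.36, with 53 UMIs in WT and 80 in *Tipe0*-/-. The lower genes include *Reg3g* and *Mptx1*, which were higher outside than inside in both libraries. *Mptx1* had 75 and 9 UMIs inside. Of 7 genes of peptide processing and secretion 0 were lower and 1 was higher, the chaperone gene *Hspa5* at 0.90. *Mmp7*, whose product matures the defensins, was at -0.35 (1167 CPM in WT, 915 CPM in *Tipe0*-/-). Of 6 transcription factor genes 2 were higher, *Sox9*, which Paneth cells need to form, at 0.89 and the TCF gene *Tcf7l2* at 0.52, and 0 were lower. *Tcf7l2* lay below the median of all genes, 0.59, and the others of the 6 ran from -0.12 for *Spdef* to 0.11 for *Bhlha15*. Of 4 receptor and niche genes 1 was higher, the Wnt receptor gene *Fzd5* at 1.30, which rested on 56 inside UMIs in WT and 81 in *Tipe0*-/-. *Hspa5*, *Tcf7l2* and *Fzd5* were higher outside than inside in both libraries. In WT and *Tipe0*-/- their outside levels were 418% and 270%, 297% and 211%, and 907% and 529% of their inside levels. *Sox9* stood outside at 111% of its inside level in WT and 84.1% in *Tipe0*-/-, and its log2 ratio outside was 0.48. The counts of higher and lower genes stand beside the 59.9% of all genes that were higher and the 1.41% that were lower inside.

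Outside *Lyz1*-rich cells every member was lower in *Tipe0*-/-. *Gm15284* stood at 1956 CPM in WT and 572 CPM in *Tipe0*-/-, with a log2 ratio of -1.77 (-1.80 to -1.75), and *Defa22* at 1097 and 501 CPM, or -1.13. *Gm14851* stood at 285 and 129 CPM, or -1.15, and *Gm21002* at 199 and 187 CPM, or -0.09 (-0.15 to -0.03). The *Gm21002* ratio outside was -0.76 at a *Lyz1* cut of 0.25% and -1.04 without the 10 cells of each library with the most member UMIs. The low members were *Gm15292* at -1.90, *Defa23* at -0.80, *Defa5* at -0.70 and *Gm15293* at -0.54. By a log2 ratio of 0.5, 7 of 8 members were lower and 0 higher, where 6.5% of 11549 genes were lower and 10.7% higher, and the median of all genes was 0.11. The summed members gave -1.33 (-1.35 to -1.31).

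Few cells decided that sum. In WT 58 of the 3159 outside cells had 1% or more of their UMIs in members and held 81.1% of the outside member UMIs, and in *Tipe0*-/- 12 of 1874 held 70.2%. Their median *Lyz1* share was 0.276% and 0.410%, under the cut of 0.5%. The 10 outside cells with the most member UMIs held 50.7% of them in WT and 69.6% in *Tipe0*-/-, and without these 10 cells in each library the log2 ratio was -2.02. In the remaining outside cells with under 1% the members stood at 712 and 441 CPM. In cells without a *Lyz1* UMI, 1905 in WT and 1130 in *Tipe0*-/-, they stood at 674 and 351 CPM, a log2 ratio of -0.94.

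Member transcripts were found at a low level in every class of cell examined. The 254 WT enterocyte-rich cells had 865 CPM of the summed members, the 562 goblet-rich cells 694 CPM, the 58 tuft-rich cells 1086 CPM and the 53 lymphocyte-rich cells 1221 CPM, the last 2 classes being called by genes such as *Dclk1* and *Trpm5* or *Cd3e* and *Gzma* at 0.3% or more in sum. In *Tipe0*-/- the 171 enterocyte-rich cells had 437 CPM and the 420 goblet-rich cells 323 CPM, with 224 CPM in 10 tuft-rich and 562 CPM in 5 lymphocyte-rich cells. Stem-rich cells were few, 3 in WT and 11 in *Tipe0*-/-, and had 2315 and 1375 CPM. Most outside cells passed for no named class, 2187 in WT and 1222 in *Tipe0*-/-, and had 4815 and 2084 CPM. They held 111100 of the 118146 outside member UMIs in WT and 27270 of 29846 in *Tipe0*-/-. Lymphocytes are not known to make these peptides.

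With every cell thinned to 3000 UMIs, a *Gm15284* UMI was found in 66.2% of WT outside cells and in 68.5% of WT enterocyte-rich cells, against 100% of *Lyz1*-rich cells. In *Tipe0*-/- the shares were 39.9%, 37.4% and 96.2%. Without thinning they were 93.1%, 88.2% and 100% in WT, where the median depths were 7266, 5416.5 and 21728 UMIs. For *Defa22* the thinned shares were 53.9% outside and 56.3% in enterocyte-rich cells in WT, and 40.8% and 34.5% in *Tipe0*-/-. *Gm21002* was found in 14.2% and 20.5% in WT and in 13.4% and 10.5% in *Tipe0*-/-. The rarer members were found in 1.99% to 4.31% of outside cells in WT for *Defa23*, *Gm15292*, *Gm15293* and *Defa5*, and in 79.8% to 94.2% of *Lyz1*-rich cells. Enterocytes are not known to make these peptides, so shares near those of enterocyte-rich cells are not given as expression. Where the transcripts in such cells came from was not tested.

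Over all outside cells the members kept nearly the same proportions as inside. Their outside level was 1.57% to 1.93% of their inside level in WT and 0.730% to 1.09% in *Tipe0*-/-, over members whose inside levels differ 56.9-fold or more. These sums rest mostly on few cells, since 58 WT and 12 *Tipe0*-/- cells held 81.1% and 70.2% of the outside member UMIs. Within single classes the members spread more widely around a lower level. In goblet-rich cells they stood at 0.180% to 0.395% of their inside level in WT and 0.121% to 0.269% in *Tipe0*-/-, and in enterocyte-rich cells at 0.243% to 0.474% and 0.177% to 0.338%. Some of these values rest on few UMIs, such as 4 in WT and 3 in *Tipe0*-/- enterocyte-rich cells for *Defa23*. *Defa24*, the most abundant alpha-defensin row, differed: goblet-rich cells held 6.61% of its inside level in WT and 4.06% in *Tipe0*-/-, against 0.498% and 0.346% in enterocyte-rich cells. In *Tipe0*-/- 10 of the 420 goblet-rich cells held 55.6% of these *Defa24* UMIs, and without the 10 richest cells of each library, also chosen after seeing the data, the goblet-rich values were 5.07% and 1.86%. After thinning, a *Defa24* UMI was found in 94.5% of WT and 76.7% of *Tipe0*-/- goblet-rich cells. That share was not computed for enterocyte-rich cells, which held 1523 *Defa24* UMIs in 254 WT cells and 477 in 171 *Tipe0*-/- cells. The goblet-rich shares therefore cannot be set against an enterocyte-rich share and are not given as expression. *Ang4* was likewise higher in goblet-rich than in enterocyte-rich cells, at 29.0% against 0.380% in WT and 4.08% against 0.314% in *Tipe0*-/-, and its goblet-rich values were 23.8% and 2.86% without its 10 richest cells. So was *Defa17*, named after its values were seen, at 8.22% against 0.690% in WT and 6.16% against 0.167% in *Tipe0*-/-. These rows were not alone. Over the 16 other alpha-defensin rows with 100 or more UMIs inside, the goblet-rich median was 0.749% in WT and 0.692% in *Tipe0*-/-. Their enterocyte-rich medians were 0.467% and 0.304%.

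**Figure D5:**
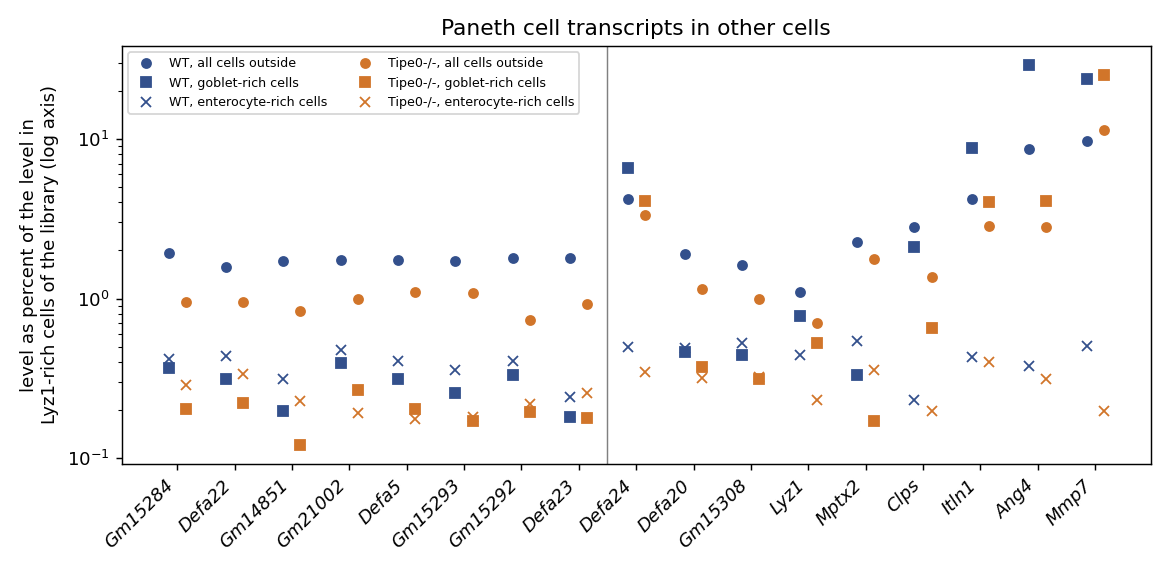
Level of each gene in other cells as percent of its level in *Lyz1*-rich cells of the same library (log axis), for all outside cells (circles), goblet-rich cells (squares) and enterocyte-rich cells (crosses), with WT in blue and *Tipe0*-/- in orange. For all outside cells the 8 members left of the line lie close together, at 1.57% to 1.93% in WT and 0.730% to 1.09% in *Tipe0*-/-. Most of those outside UMIs lay in 58 WT and 12 *Tipe0*-/- cells. In the 2 named classes the members spread more widely. *Defa24*, *Itln1*, *Ang4* and *Mmp7* stand higher in goblet-rich than in enterocyte-rich cells, and *Clps* and *Lyz1* do so by less.

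The promoters of the 2 most abundant members are shown because members share a TCF-type motif there. Each is the 250 bases before the gene start in RefSeq on GRCm38.p6, plus strand, chr8:21134400-21134649 for *Gm15284* and chr8:21162027-21162276 for *Defa22*, and capitals mark CTTTGA read on the opposite strand (TCAAAG).
Gm15284 promoter: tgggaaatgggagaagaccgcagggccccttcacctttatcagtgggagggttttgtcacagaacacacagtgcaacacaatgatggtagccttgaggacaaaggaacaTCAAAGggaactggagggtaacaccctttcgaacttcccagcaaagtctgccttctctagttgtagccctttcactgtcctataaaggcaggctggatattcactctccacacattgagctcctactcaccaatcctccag
Defa22 promoter: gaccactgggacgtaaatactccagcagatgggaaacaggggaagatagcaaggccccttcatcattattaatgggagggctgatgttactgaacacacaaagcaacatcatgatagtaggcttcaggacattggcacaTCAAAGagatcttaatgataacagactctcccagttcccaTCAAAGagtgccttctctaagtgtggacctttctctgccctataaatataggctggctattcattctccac
The motif, searched on both strands, occurred 1 time in the *Gm15284* window and 2 times each in those of *Defa22*, *Defa23* and *Gm15293*, and was not found in that of *Gm14851*. Of all 32851 promoter windows of that length, 13.8% held it. A match describes letters and is no measure of binding. Members with 2 matches had inside log2 ratios of -0.41 for *Defa22*, 0.14 for *Defa23* and 0.13 for *Gm15293*, *Gm15284* with 1 match had -0.75, and *Gm14851* with 0 matches had -0.10.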

How the data were processed

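Single-cell RNASeq of ileal epithelium was measured in 1 WT and 1 *Tipe0*-/- library, each pooled from 3 mice. The authors used 10X Single Cell 3′ chemistry and Cell Ranger on mm10 and deposited raw UMI counts per gene and cell, not normalized. The methods name DNase I with Dispase for dissociation and the labels collagenase with dispase, and the labels speak of enteroids, neither of which was resolved. UMIs were summed over the cells at or above and under 0.5% *Lyz1* and divided by the UMIs of those cells. A log2 ratio sets *Tipe0*-/- against WT, after adding 0.5 to both sums. With 1 library per genotype no test was run. Intervals at 95% are exact Poisson, binomial or Clopper-Pearson and cover counting error only. Depth was 38127808 and 23897126 UMIs, with at least 3247 and 3562 per cell. Other cell classes were called by summed marker shares, and cells that passed for 1 class and were not *Lyz1*-rich were used. Genes with 50 or more UMIs over both libraries gave the background. For shares of cells with a UMI, every cell was thinned to 3000 UMIs. No doublet caller was run, and cells with the most UMIs or with transcripts of another class were left out as alternatives. The text names all members, the 3 other alpha-defensin rows with the most UMIs, and the 5 genes most like the summed members. Of the Paneth list it names part, mainly genes with 100 or more UMIs inside *Lyz1*-rich cells over both libraries. Some of these were named for the size of their ratio. The members and lists were chosen with earlier results of these data known. Transcript and coding sequences came from GENCODE on GRCm38 and promoters from RefSeq on GRCm38.p6, which held 5 of the 8 members. Only the ratio step was tested on simulated data, with Poisson counts that have no spread between cells or mice. Python 3.11.15, numpy 2.4.6, scipy 1.17.1, pandas 2.3.3, Biopython 1.88 and matplotlib 3.10.9 were used.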

Additional observations from a re-analysis of the deposited data

Results flagged for a closer look

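For 3 members the difference between the libraries had opposite signs inside and outside *Lyz1*-rich cells, with counting intervals clear of 0 on both sides. *Gm21002* had a log2 ratio of 0.73 inside and -0.089 outside, *Defa23* 0.14 inside and -0.80 outside, and *Gm15293* 0.13 inside and -0.54 outside. The difference between the 2 ratios was not tested, since each genotype has 1 library. How many of all genes had opposite signs was not counted. The median log2 ratio of all genes was 0.59 inside and 0.11 outside. Relative to those medians *Defa23* was at -0.45 inside and -0.92 outside, *Gm15293* at -0.46 and -0.65, and *Gm21002* at 0.14 and -0.20. Inside, *Defa23* and *Gm15293* were below 0 once alpha-defensins and *Lyz1* were left out of the denominator, at -0.27 and -0.28, and *Gm21002* was at 0.33. Most outside member UMIs lay in 58 WT and 12 *Tipe0*-/- cells, and without the 10 richest outside cells of each library the outside ratios were -1.04, -1.73 and -1.54. The transcripts of *Gm21002* and *Defa23* are nearly all shared with related rows.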

How the results depend on the processing

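With 1 library per genotype no result has replicate error, and no paired analysis was possible. The 4 summed results are given in the order inside ratio, outside ratio, inside over outside in WT and in *Tipe0*-/-, all log2, against -0.42, -1.33, 5.82 and 6.73. Most alternatives moved them by more than counting error, and only the choice of cells by *Mptx2*, *Ang4* and *Mmp7* turned a sign, giving 0.040, 0.82, 5.84 and 5.06. A *Lyz1* cut of 0.25% gave -0.42, -1.79, 6.98 and 8.34, a cut of 1% -0.38, -1.81, 3.91 and 5.34, and a cut of 2% -0.28, -1.15, 2.88 and 3.75. Leaving alpha-defensins and *Lyz1* out of the denominator gave -0.83, -1.34, 7.38 and 7.89, and leaving out mitochondrial and the 20 most abundant genes -0.80, -1.35, 6.92 and 7.47. Without the 5% of cells with the most UMIs the values were -0.25, -1.90, 5.94 and 7.59, and without cells rich in another class -0.41, -1.33, 5.82 and 6.74. The mean of single-cell shares gave -0.36, -1.50, 6.12 and 7.27, thinning to 3000 UMIs -0.35, -1.54, 6.12 and 7.31, and all 28 rows -0.28, -0.89, 5.33 and 5.95. Scaling by the median gene gave -1.01 and -1.44, and leaving out the 10 cells richest in members -0.48 and -2.02. Outside cells at or under the median *Lyz1* share gave -0.94, and subtracting the level of lymphocyte-rich cells gave -0.42 inside. Leaving out *Lyz1*-rich cells with under 1% members, chosen after seeing the data, gave -0.40 inside, and 5.85 and 6.78 for inside over outside. Without a filter beyond 1 UMI, 12.0% of genes were lower by 0.5 inside, and 19.6% were higher and 17.5% lower outside. For single members, the *Mptx2*, *Ang4* and *Mmp7* rule turned the outside ratios to 1.12 for *Defa5*, 0.89 for *Defa22*, 1.30 for *Defa23*, 1.63 for *Gm14851*, 2.03 for *Gm21002*, 1.15 for *Gm15293*, 0.39 for *Gm15284* and 0.59 for *Gm15292*, and the inside ratios to 0.068 for *Defa22* and 0.37 for *Gm14851*. *Gm14851* also turned inside at a cut of 2%, to 0.18, and without the 5% of cells with the most UMIs, to 0.074, and *Gm21002* outside at a cut of 2%, to 0.043. *Defa23* inside turned to -0.27, -0.24 and -0.45 under the 2 smaller denominators and median scaling, and *Gm15293* to -0.28, -0.25 and -0.46, and to -0.0025 without the 10 richest cells. *Gm21002* stayed above 0 inside in 15 of 15 alternatives, from 0.12 when summed with rows of shared sequence (chosen after seeing the data) to 1.16, and *Gm15284* stayed below 0 in 14 of 14, from -1.34 to -0.30. The *Mptx2*, *Ang4* and *Mmp7* rule left outside 29 WT *Lyz1*-rich cells with 56724 member UMIs and 47 *Tipe0*-/- ones with 101414. The rule took in 177 WT cells with 82080 member UMIs and 11 *Tipe0*-/- cells with 18065 that were not *Lyz1*-rich. Under the *Lyz1* cut of 0.5% all outside cells held 118146 member UMIs in WT and 29846 in *Tipe0*-/-. The cause of the shifts under the alternatives was not tested.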
